A study of Mus musculus with 8 samples.

Results

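The liver secretes a set of proteins, the hepatokines, that act on adipose tissue, muscle, brain and the liver itself. RNA of 9 genes of this kind was examined in mouse liver: the ligands *Fgf21* and *Gdf15*, the lipase inhibitors *Angptl4* and *Angptl8*, the fetuins *Ahsg* and *Fetub*, the selenium carrier *Selenop*, and the receptor side of the FGF21 axis, *Fgfr4* and its co-receptor *Klb* (β-Klotho). The genes were listed by name and not by their values, though with earlier results of these data known. Each matched 1 of the 45706 gene rows of the count table through its Ensembl identifier, and 9 of 9 had enough counts to enter the comparison, which covered 15491 genes.

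Liver RNA-seq libraries came from 8 male mice of the strain labelled C56B6/J, 4 in a group labelled *Srsf10-kd* (genotype label Srsf10KD) and 4 in a group labelled *Ctrl* (genotype label WT). At 6 weeks of age each mouse had received, through the tail vein, an adeno-associated virus in which the CBA promoter, active in many cell types, drives GFP together with a short hairpin RNA. The hairpin was directed against *Srsf10*, a splicing factor gene, in the first group and was a control hairpin in the second. All 8 mice were then given a high-fat diet, with 60% of the calories from fat, from 4 weeks after the injection and for 12 weeks, so that both groups carried the virus, the GFP and the diet. The comparison asks how liver RNA differed between the groups when obesity is induced by diet, and the labels give no litter, day or cage.

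FGF21 is a hormone released by the liver in fasting, in protein restriction and in cell stress. It signals through an FGF receptor bound to β-Klotho, a membrane protein without kinase activity of its own, and adipose tissue and the brain are its best known targets. In hepatocytes β-Klotho pairs mainly with FGFR4, which receives FGF15 from the intestine and lowers bile acid synthesis. GDF15 is a stress-induced hormone that reduces food intake through a receptor of the hindbrain. ANGPTL4 and ANGPTL8 restrain lipoprotein lipase, the enzyme that releases fatty acids from circulating triglyceride, ANGPTL4 mostly in the fasted state and ANGPTL8 in the fed state. Fetuin-A, the product of *Ahsg*, binds calcium phosphate and can inhibit the insulin receptor, and fetuin-B, the product of *Fetub*, is a related protease inhibitor. Selenoprotein P, the product of *Selenop*, carries selenium from the liver to other organs.

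The libraries labelled *Srsf10-kd* held 50456404 to 56575926 counts and the *Ctrl* libraries 50538612 to 59697241. Levels are given as CPM, in which every gene's count is brought to a library size common to all livers. *Srsf10* RNA was at 36.4 ± 3.24 CPM (mean ± SD, n = 4) in the livers that carried its hairpin by label and at 32.9 ± 1.99 in the *Ctrl* livers, a log2 fold change of 0.15 for which edgeR's quasi-likelihood test gave an adjusted p of 0.378, so the RNA of the targeted gene was not lower and the groups are called by their labels throughout. *Srsf10-kd* 3 stood apart from the other 7 livers, at -67.4 on a first principal component that held 44.8% of the variance. The other *Srsf10-kd* livers were at -11.5 to -1.92 and the *Ctrl* livers at 2.91 to 41.8, so the groups did not overlap on it. The slope of a library's log2 level on transcript length ran from -0.181 to -0.0238 in the livers labelled *Srsf10-kd* and from -0.0303 to 0.133 in the *Ctrl* livers, so differences are also given after that trend was removed where this matters. Summed hepatocyte markers were high in every liver, at 85825 to 120417 CPM. Summed cholangiocyte markers (5 of 5 found) took 46.5 to 68.6 CPM of each *Srsf10-kd* library and 31.4 to 39.1 CPM of each *Ctrl* library, without overlap. Summed pancreatic acinar markers (8 of 8 found) were at 24.3, 380, 53.0 and 28.4 CPM in *Srsf10-kd* 1 to 4. In the *Ctrl* livers they were at 15.6 to 25.5 CPM, so the ranges overlapped. Of the 8 acinar genes, 8 were higher at an unadjusted edgeR p under 0.05 (11.2% of all tested genes were) and 0 passed the adjusted test. Higher without overlap were 5 of the 8, against 6.73% of all tested genes. The ranges of the macrophage, endothelial, stellate cell, lymphocyte and adipocyte sums overlapped between the groups.

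For the hormone and its co-receptor, a stretch of coding sequence is shown from the GENCODE transcripts to identify each transcript, chosen as the one that a primer pair listed by the study spans, with the primer sites in capitals. The values given here are counts over the whole gene and not over these stretches. The *Fgf21* stretch joins exons 2 and 3 of the longest transcript and lies within the coding sequence, at chr7:45614232-45614887 (GRCm38, minus strand, the intron between them left out). The *Klb* stretch joins exons 3 and 4, also within the coding sequence, at chr5:65375922-65378976 (plus strand). Neither primer pair matched the transcripts of another gene exactly.
Fgf21: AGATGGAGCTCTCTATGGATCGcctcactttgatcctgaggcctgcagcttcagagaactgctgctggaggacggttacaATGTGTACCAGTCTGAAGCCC
Klb: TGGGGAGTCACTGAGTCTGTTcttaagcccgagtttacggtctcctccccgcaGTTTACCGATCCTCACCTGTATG

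The promoters of 8 of the 9 genes, at 12 start sites, were read from RefSeq (GRCm38.p6) from 250 bases before to 50 bases after the start. They were searched on both strands for 4 motifs: TTGCATCA, a composite element bound by C/EBP and ATF proteins in the amino acid response, the E-box CACGTG, the cAMP response element TGACGTCA, and a direct repeat of AGGTCA with any 1 base between the copies, bound by nuclear receptors such as PPARα. The composite element was found in *Fgf21*, 139 bases before the start, and in *Angptl8*, 130 bases before the start on the opposite strand. In all, 0.895% of 32851 mouse promoters of the same length held it. The E-box was found in *Fgf21*, 50 bases before the start, and at 1 of the 2 *Gdf15* starts, 83 bases before it, and was held by 7.15% of all promoters. The cAMP response element (1.79% of all promoters) and the strict direct repeat (0.0396%) had no match in these windows, and *Klb*, *Fgfr4*, *Ahsg*, *Fetub* and *Selenop* held none of the 4 motifs there. The windows of 160 bases before the start of the pair that share the composite element are shown, on the strand of the gene, with the motifs in capitals. They lie at chr7:45615491-45615650 (minus strand) and chr9:21835350-21835509 (plus strand). A match is a run of letters and not a measured site.
Fgf21: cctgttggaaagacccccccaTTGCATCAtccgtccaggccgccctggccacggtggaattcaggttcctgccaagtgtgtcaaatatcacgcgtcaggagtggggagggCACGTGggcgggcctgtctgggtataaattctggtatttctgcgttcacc
Angptl8: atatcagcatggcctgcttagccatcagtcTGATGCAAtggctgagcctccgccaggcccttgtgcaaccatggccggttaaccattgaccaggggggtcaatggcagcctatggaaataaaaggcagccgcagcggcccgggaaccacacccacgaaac

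The 9 transcripts covered a wide range of levels in liver, with the fetuin-A and selenoprotein P transcripts far above the others. To compare genes, CPM was divided by the length of the longest annotated transcript in kilobases (CPM per kb). *Ahsg* was at a median of 4440 CPM per kb over the 8 livers (3846 to 5019) and *Selenop* at 3416 (3046 to 4155), and the pair took 94.7% to 96.4% of the summed level of the 9 genes in each liver. *Fetub* followed at 238 (202 to 358) and *Angptl4* at 72.4 (47.4 to 83.9). The endocrine factor *Fgf21*, at 19.5 (4.89 to 42.6), was in the range of *Angptl8*, at 23.5 (11.4 to 33.1). The receptor genes were low, with *Fgfr4* at 7.95 (4.85 to 9.83) and *Klb* at 7.06 (2.698 to 10.1), beside *Gdf15* at 5.42 (2.82 to 7.03). In this order the ranges of *Ahsg* and *Selenop* overlapped, as did those of *Angptl8* and *Fgf21* and those of *Fgfr4*, *Klb* and *Gdf15*, and *Fgf21* also reached down into the range of *Fgfr4*, whereas *Fetub* and *Angptl4* overlapped with neither neighbour.

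**Figure D1:**
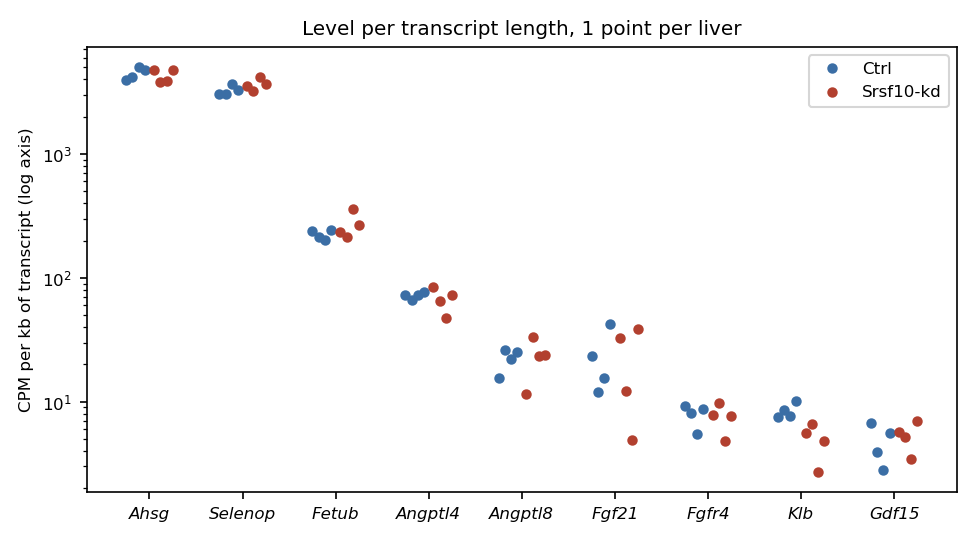
Level of each gene in CPM per kilobase of transcript on a log axis, 1 point per liver, with *Ctrl* in blue and *Srsf10-kd* in red. *Ahsg* and *Selenop* lie at 3046 to 5019 in every liver, and the points of *Fgf21* spread the most, from 4.89 to 42.6.

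*Fgf21* varied most from liver to liver, and *Ahsg* and *Selenop* varied least. The SD of log2 CPM within groups, pooled over both, was 1.13 for *Fgf21*, and 0.328% of the 10967 genes with a mean log2 CPM of at least 1 had a larger one. It was 0.516 for *Angptl8*, 0.497 for *Gdf15*, 0.418 for *Klb* and 0.386 for *Fgfr4*, all above the median of 0.212 over those genes. *Angptl4* (0.255) and *Fetub* (0.245) lay near that median, and *Ahsg* (0.167) and *Selenop* (0.137) below it. The highest liver exceeded the lowest 8.71-fold for *Fgf21*, and 1.31-fold for *Ahsg*. The size of a difference that 4 livers against 4 can show therefore differs greatly among these genes, and each is given with its 95% interval.

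No member passed the adjusted test between the groups. With edgeR's quasi-likelihood test and Benjamini-Hochberg adjustment over the 15491 genes, 0 of the 9 had an adjusted p under 0.05, where 0.0710% of all genes (11 genes, all lower in the livers labelled *Srsf10-kd*) did. At an unadjusted p under 0.05 there was 1 of 9, *Klb*, against 21.8% of all genes, and *Klb* was also the 1 gene whose groups did not overlap, against 14.3% (6.73% higher, 7.53% lower). DESeq2 called 1 of 9, again *Klb* as lower, where it called 5.22% of the tested genes (1.96% higher, 3.25% lower). With limma-voom, *Klb* was again the 1 call, where 11.7% of all genes were called (5.03% higher, 6.68% lower). In sign, 4 were higher and 5 lower, against 51.3% and 48.7% of all genes. Their median log2 fold change was -0.05, against 0.01 for all genes. The 1 call is a result on *Klb* and not on the 9 genes as a set. In the intervals plotted for the 9 genes, only that of *Klb* lies wholly on one side of 0.

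**Figure D2:**
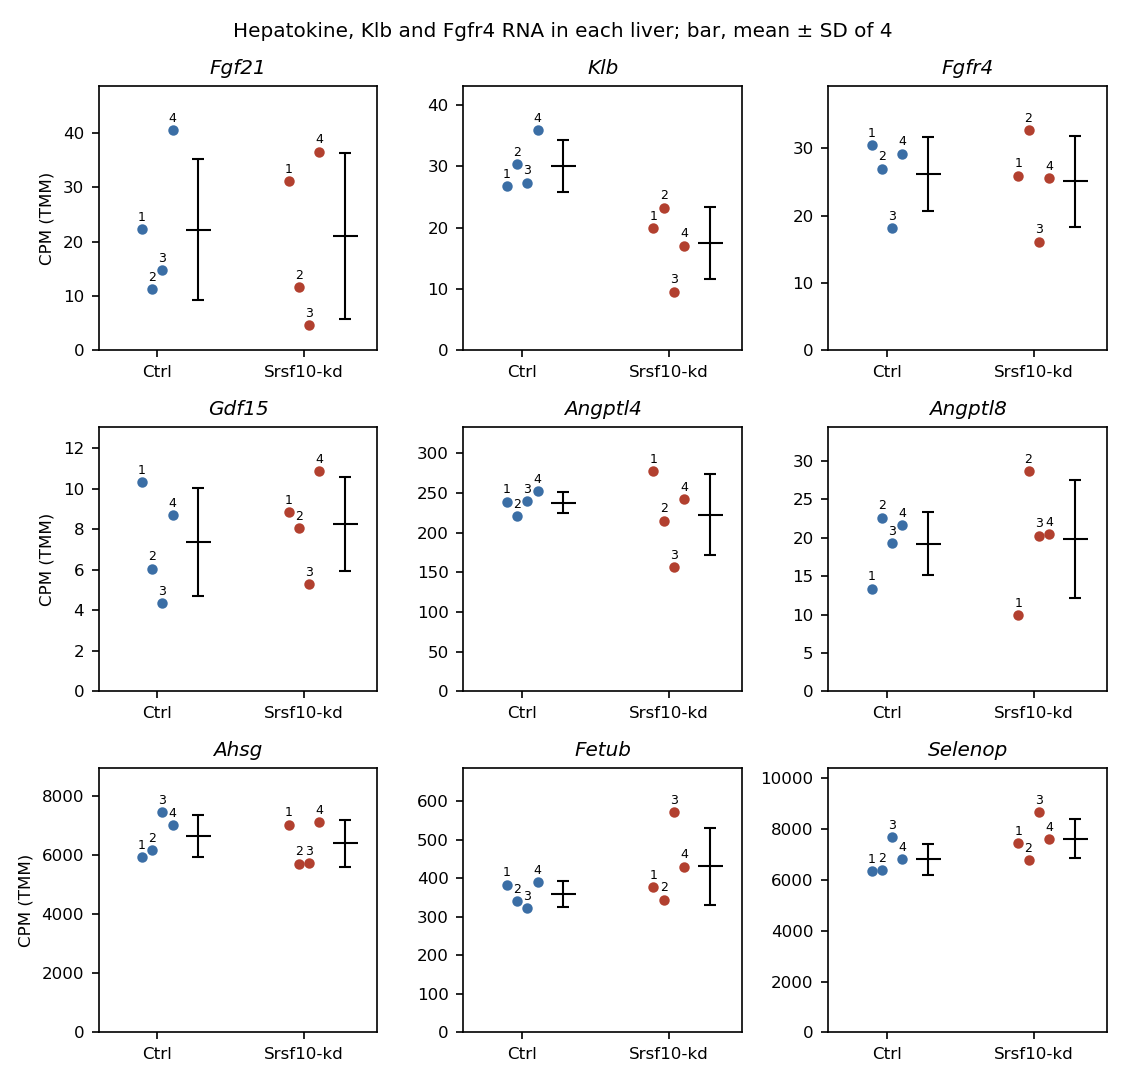
CPM after TMM normalization of each of the 9 genes in each liver, with the replicate number beside each point and the mean ± SD of 4 livers as a bar; every axis starts at 0. The *Klb* points of the groups do not overlap (9.55 to 23.3 against 26.7 to 35.9), and those of the other 8 genes do.

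**Figure D3:**
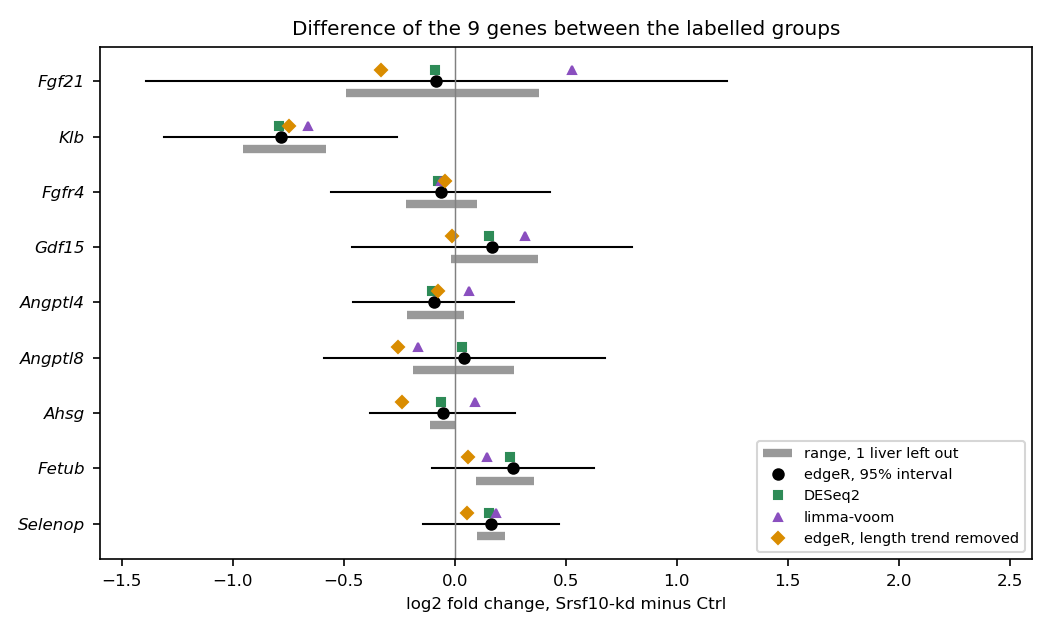
Log2 fold change of each gene, *Srsf10-kd* minus *Ctrl*, with edgeR's 95% interval (black), the estimates of DESeq2, of limma-voom and of edgeR after removal of the length trend, and the range over 8 fits that each leave out 1 liver (grey). *Klb* stays below 0 in every fit, and *Fgf21* has the widest interval, from -1.39 to 1.23.

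On the receptor side, *Klb* RNA was lower in the livers labelled *Srsf10-kd*, and *Fgfr4* RNA, its partner in hepatocytes, did not differ beyond its spread. *Klb* (chr5:65348314-65384007 on GRCm38, plus strand, 5 exons in the longest transcript) was at 19.9, 23.3, 9.55 and 17.1 CPM in *Srsf10-kd* 1 to 4. In *Ctrl* 1 to 4 it was at 26.7, 30.3, 27.3 and 35.9 CPM. Every liver labelled *Srsf10-kd* lay below every *Ctrl* liver, and *Srsf10-kd* 3, the liver that stood apart, was the lowest. The means were 17.4 ± 5.84 and 30.0 ± 4.19 CPM (SD, n = 4 each), a fold of 0.581 and a log2 fold change of -0.78 (SE 0.24, 95% interval -1.31 to -0.26). The exact permutation test, with 70 assignments of livers to groups, gave p = 0.0286, the smallest that 4 against 4 allows. The adjusted p was 0.138 with edgeR, 0.0411 with DESeq2 and 0.0208 with limma-voom, so the call turns on the tool. Without *Srsf10-kd* 3 the log2 fold change was -0.58 (edgeR adjusted p 0.121), and with the trend on transcript length removed it was -0.75 (edgeR adjusted p 0.199). The cholangiocyte markers, which also separate the groups, are higher where *Klb* is lower, and their part in the result was not tested. In whole liver, fewer cells of a type cannot be told apart from less RNA in each cell.

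*Fgfr4* (chr13:55152640-55168759, plus strand, 18 exons) was at 25.9, 32.7, 16.1 and 25.5 CPM in *Srsf10-kd* 1 to 4 and at 30.4, 26.9, 18.1 and 29.2 CPM in *Ctrl* 1 to 4. The groups overlapped throughout. The means were 25.05 ± 6.81 and 26.2 ± 5.55 CPM (SD, n = 4), with a log2 fold change of -0.06 (SE 0.22, 95% interval -0.56 to 0.43, edgeR adjusted p 0.877; exact permutation p = 0.686). The interval does not reach the -0.78 of *Klb*, though the difference between the genes was not tested. Since both genes were read in the same libraries, their ratio was taken, a quantity chosen after the values were seen and given without a test. *Klb* over *Fgfr4* was 0.767, 0.712, 0.593 and 0.669 in *Srsf10-kd* 1 to 4 and 0.878, 1.12, 1.504 and 1.23 in *Ctrl* 1 to 4. The ratio was under 1 in 5 livers, *Ctrl* 1 and all 4 labelled *Srsf10-kd*, and its ranges did not overlap between the groups.

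The other receptors of the family did not differ beyond their spread. *Fgfr1*, the receptor through which FGF21 acts in adipose tissue, was scarce in liver at 3.95 ± 0.321 and 3.87 ± 0.823 CPM (log2 fold change 0.03). *Fgfr2* was at 18.0 ± 1.36 and 19.6 ± 2.01 CPM (log2 fold change -0.12), and *Fgfr3* at 23.0 ± 3.68 and 23.4 ± 4.80 CPM (log2 fold change -0.03), for *Srsf10-kd* and *Ctrl* livers in that order. The adjusted p of these 3 genes in edgeR's quasi-likelihood test ran from 0.501 to 0.933. *Fgf1*, a ligand of all FGF receptors, was at 129, 121, 127 and 125 CPM in *Srsf10-kd* 1 to 4 and at 173, 172, 162 and 140 CPM in *Ctrl* 1 to 4. Its groups did not overlap, its log2 fold change was -0.36 (SE 0.10), and as with *Klb* the adjusted p depended on the tool, at 0.130 with edgeR, 0.0151 with DESeq2 and 0.0156 with limma-voom. *Frs2*, the adaptor that binds the activated receptor, was at 14.2 ± 3.49 and 19.7 ± 2.63 CPM (log2 fold change -0.47, edgeR adjusted p 0.202), with overlap between the groups. *Fap*, whose product cleaves and inactivates FGF21, was barely detected, at 0.215 ± 0.0613 and 0.240 ± 0.107 CPM.

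Of 32 genes of FGF receptor signalling tested, *Klb*, *Fgfr4* and *Fgf21* included, 0 passed the adjusted edgeR test. At an unadjusted p under 0.05 there were 7 lower and 0 higher, where 10.6% and 11.2% of all tested genes were lower and higher. Of the 32, 21 were lower in sign and 11 higher, against 48.7% and 51.3% of all tested genes. The median log2 fold change was -0.08, and 5 had lower groups without overlap (7.53% of all tested genes did). DESeq2 called 3 lower and limma-voom called 6 lower, where they called 3.25% and 6.68% of all tested genes as lower. After removal of the length trend the median was -0.03. *Cyp7a1* and *Nr0b2*, listed for their roles in bile acid synthesis, did not pass either. *Cyp7a1*, the rate-limiting enzyme of bile acid synthesis, which FGFR4 with β-Klotho represses, was at 177 ± 81.2 and 200 ± 39.4 CPM (log2 fold change -0.18, edgeR adjusted p 0.712). *Nr0b2*, which encodes the repressor SHP, was at 25.7 ± 3.46 and 22.4 ± 3.20 CPM (log2 fold change 0.20, edgeR adjusted p 0.385).

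**Figure D4:**
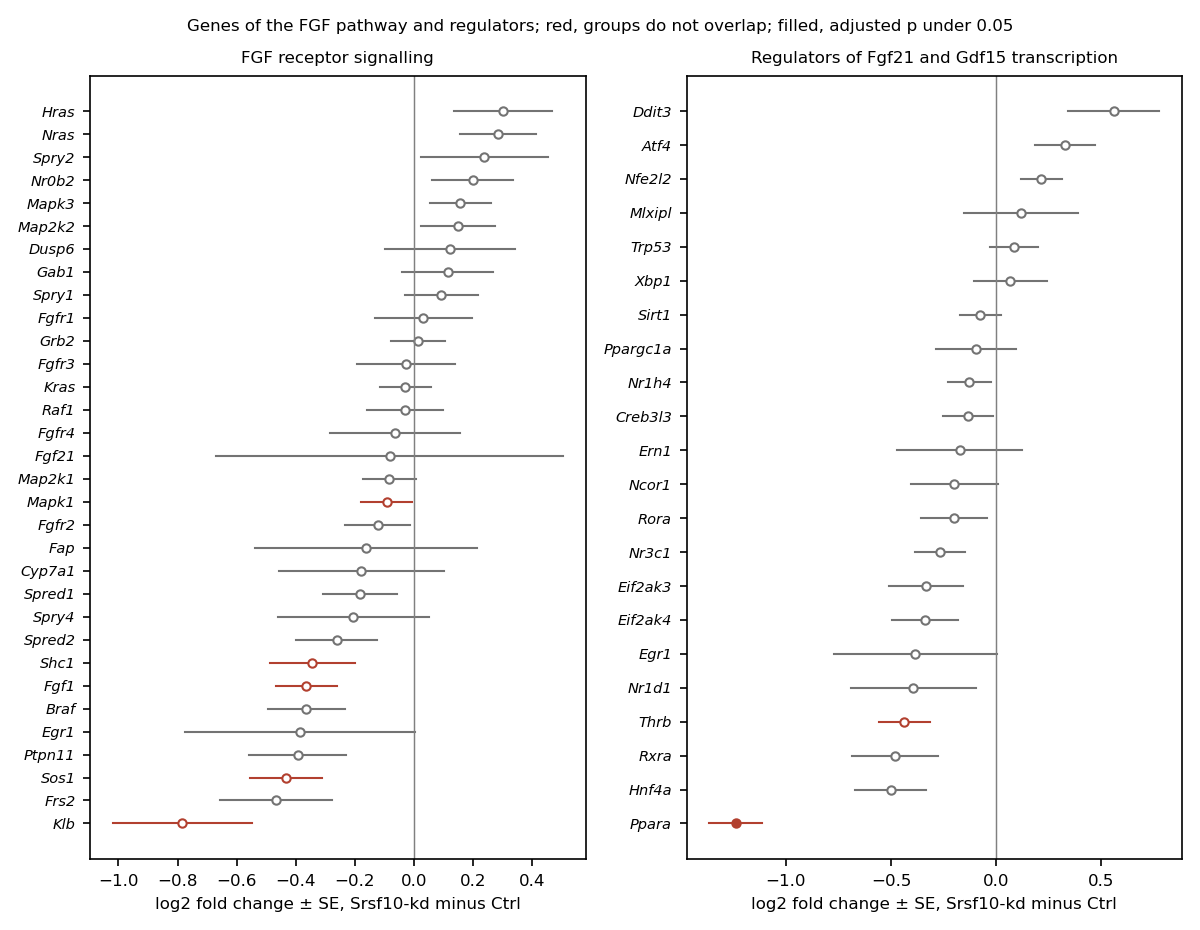
Log2 fold change ± SE, *Srsf10-kd* minus *Ctrl*, of 32 genes of FGF receptor signalling (left) and 22 regulators of *Fgf21* and *Gdf15* transcription (right), with red for groups that do not overlap and filled points for an adjusted p under 0.05. *Klb* has the lowest value on the left (-0.78), and *Ppara* (-1.24) is the 1 filled point.

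The hormone of the axis, *Fgf21* (chr7:45613886-45615490, minus strand, 3 exons), varied more between livers of 1 group than between the groups. It was at 31.2, 11.6, 4.65 and 36.5 CPM in *Srsf10-kd* 1 to 4 and at 22.3, 11.3, 14.7 and 40.5 CPM in *Ctrl* 1 to 4. The highest and the second highest liver were thus *Ctrl* 4 and *Srsf10-kd* 4, and the lowest was *Srsf10-kd* 3, the liver that stood apart. The means were 20.98 ± 15.3 and 22.2 ± 13.0 CPM (SD, n = 4), a log2 fold change of -0.08 (SE 0.59, 95% interval -1.39 to 1.23, edgeR adjusted p 0.942; exact permutation p = 0.714). The interval spans a fall and a rise of more than 2-fold, so a difference of that size was not detectable at this spread. The sign was not stable: the log2 fold change was 0.53 with limma-voom (adjusted p 0.456), 0.26 when *Srsf10-kd* 3 was left out, 0.12 when *Srsf10-kd* 2 was, and 0.38 when *Ctrl* 4 was. Acinar cells of the pancreas also express *Fgf21*, and *Srsf10-kd* 2, the library with 380 CPM of acinar markers, had 11.6 CPM of it, the third lowest value of the 8. The part of acinar RNA in that value was not tested.

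Among the regulators, *Ppara* was the gene that passed the adjusted test. PPARα drives *Fgf21* transcription in fasting and also *Angptl4*. *Ppara* was at 88.4, 84.6, 77.8 and 82.3 CPM in *Srsf10-kd* 1 to 4 and at 177, 208, 168 and 234 CPM in *Ctrl* 1 to 4, without overlap. It fell by 1.24 on the log2 scale (edgeR's quasi-likelihood test, adjusted p 0.0166). The adjusted p of *Ppara* was 1.7e-15 with DESeq2, 0.0016 with limma-voom and 0.0149 in edgeR with the length trend removed. *Creb3l3*, whose product acts with PPARα at *Fgf21*, was at 476 ± 32.9 and 523 ± 57.003 CPM (log2 fold change -0.13), and *Mlxipl*, which encodes the carbohydrate-responsive factor ChREBP, was at 170 ± 21.8 and 157 ± 62.2 CPM (log2 fold change 0.12). *Atf4*, the main factor of the amino acid and stress response, was at 83.0 ± 16.7 and 66.2 ± 4.87 CPM (log2 fold change 0.33, edgeR adjusted p 0.222). *Ddit3*, which encodes the stress factor CHOP, was at 12.4 ± 3.01 and 8.42 ± 2.08 CPM (log2 fold change 0.56, edgeR adjusted p 0.190). Over the list of 22 regulators, 1 fell and 0 rose, where 0.0710% of all genes fell. At an unadjusted p under 0.05, 5 were lower and 2 higher, against 10.6% and 11.2% of all genes. In sign 16 were lower and 6 higher, against 48.7% and 51.3%, and the median log2 fold change of -0.19 became -0.05 once the length trend was removed. The count of 1 became 0 when *Srsf10-kd* 1, *Srsf10-kd* 2, *Srsf10-kd* 4 or *Ctrl* 2 was left out. In those fits 0 of all tested genes passed. The count was 2 with DESeq2 and 6 with limma-voom, all lower, where those tools called 3.25% and 6.68% of all genes as lower.

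The liver-to-liver pattern of *Fgf21* was shared most closely by 3 genes, ranked by Pearson's r of log2 CPM over the 8 livers among 10966 genes. *Atf5*, a transcription factor gene of the stress response, had r = 0.97 (Spearman's rho 0.93), *Plin2*, which encodes a coat protein of lipid droplets, r = 0.97 (rho 0.90), and *Hspa1b*, an inducible heat shock protein gene, r = 0.96 (rho 0.95). *Hspa1b* has a near-identical neighbour, *Hspa1a*, so its counts are uncertain. *Plin2* was at 1339, 794, 520 and 1305 CPM in *Srsf10-kd* 1 to 4 and at 1179, 941, 992 and 1306 CPM in *Ctrl* 1 to 4, high in the livers where *Fgf21* was high and lowest in *Srsf10-kd* 3. Within groups the r values were 0.97, 0.97 and 0.96. In all, 54 genes had r over 0.9, and these values describe 8 livers that share their libraries and are given without a test. None of the 4 RefSeq start sites of the 3 genes held the composite element printed for *Fgf21*. *Klb* had 733 genes with r over 0.9, led by *Nedd4* and *Mid2*, which encode ubiquitin ligases, and *Pcyt1a*, which encodes an enzyme of phosphatidylcholine synthesis (r = 0.99 each). *Nedd4* was at 174 CPM on average in the livers labelled *Srsf10-kd* and at 268 in the *Ctrl* livers, with an edgeR adjusted p of 0.138.

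**Figure D5:**
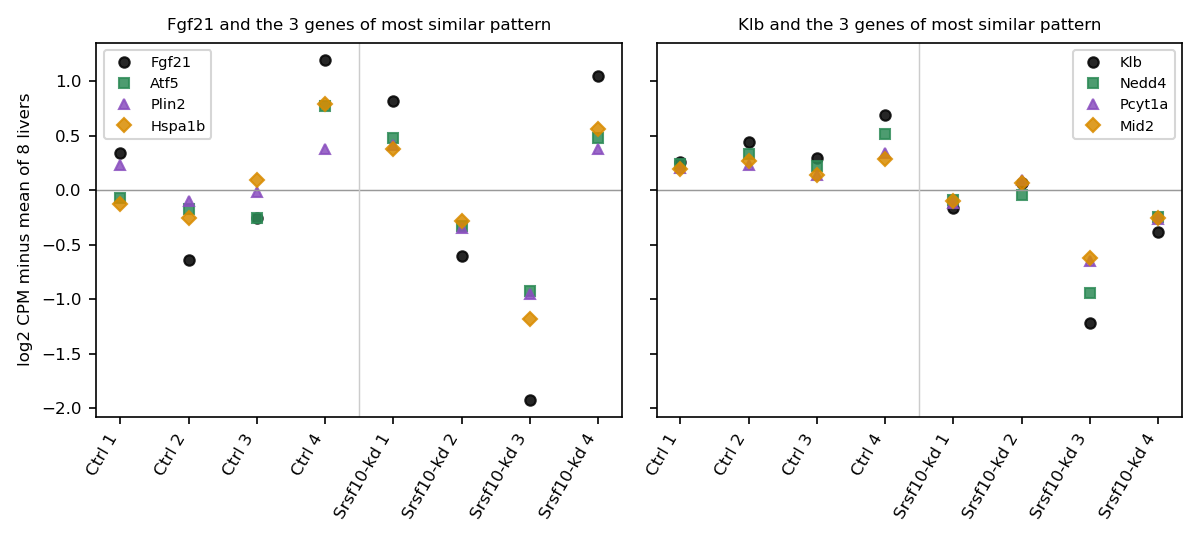
Log2 CPM minus the mean of the 8 livers for *Fgf21* (left) and *Klb* (right), each with the 3 genes of highest Pearson's r, by liver. On the left all 4 genes are lowest in *Srsf10-kd* 3. On the right the 4 *Ctrl* livers lie above 0, as does *Srsf10-kd* 2 for *Klb*, *Pcyt1a* and *Mid2*.

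Among the members themselves, *Fgf21* ran closest to *Angptl4* (r = 0.89 over 8 livers) and to *Gdf15* (r = 0.70). *Klb* ran opposite to *Fetub* (r = -0.83) and to *Selenop* (r = -0.81), and *Fgfr4* opposite to *Selenop* (r = -0.85). With each group's mean taken out these were 0.89, 0.77, -0.81, -0.72 and -0.95. They are descriptions of 36 pairs over 8 livers, of which *Srsf10-kd* 3 was the lowest for *Fgf21*, *Angptl4*, *Klb* and *Fgfr4* and the highest for *Fetub* and *Selenop*.

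*Gdf15* (chr8:70629393-70632456, minus strand, 2 exons), the stress hormone, did not differ beyond its spread. It was at 8.84, 8.05, 5.29 and 10.9 CPM in *Srsf10-kd* 1 to 4 and at 10.3, 6.05, 4.36 and 8.69 CPM in *Ctrl* 1 to 4, so the groups overlapped. The means were 8.26 ± 2.31 and 7.36 ± 2.67 CPM (SD, n = 4), a log2 fold change of 0.17 (SE 0.28, 95% interval -0.46 to 0.80, edgeR adjusted p 0.733; exact permutation p = 0.629). With the length trend removed it was -0.01, and without *Ctrl* 3 it was -0.02. The genes most like it across livers were *Plppr2* (r = 0.95), *Adrb3*, a catecholamine receptor gene (r = 0.95), and *Dennd6b* (r = 0.94), all at under 10 CPM, where 23 genes had r over 0.9.

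The lipase inhibitors differed by less than the spread between livers. *Angptl4* (chr17:33773750-33781830, minus strand, 7 exons) was at 278, 215, 157 and 242 CPM in *Srsf10-kd* 1 to 4 and at 239, 221, 240 and 252 CPM in *Ctrl* 1 to 4. The *Ctrl* livers lay close together, with an SD of log2 CPM of 0.0794 against 0.352 in the livers labelled *Srsf10-kd*, which held both the highest liver and the lowest, *Srsf10-kd* 3. The means were 223 ± 51.0 and 238 ± 13.0 CPM (SD, n = 4), a log2 fold change of -0.09 (SE 0.16, 95% interval -0.46 to 0.27, edgeR adjusted p 0.738; exact permutation p = 0.629). *Angptl8* (chr9:21835510-21837347, plus strand, 4 exons), which is induced by feeding, was at 9.90, 28.7, 20.3 and 20.5 CPM in *Srsf10-kd* 1 to 4 and at 13.4, 22.6, 19.3 and 21.6 CPM in *Ctrl* 1 to 4. Replicate 1 was the lowest liver of both groups. The means were 19.8 ± 7.68 and 19.2 ± 4.15 CPM (SD, n = 4), a log2 fold change of 0.04 (SE 0.28, 95% interval -0.59 to 0.67, edgeR adjusted p 0.937; exact permutation p = 0.886). Its sign turned with the length trend removed (-0.26), with limma-voom (-0.16) and without *Srsf10-kd* 2 (-0.19).

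*Angptl6*, a relative of both, was at 13.8 ± 6.22 and 11.8 ± 1.85 CPM (log2 fold change 0.22). *Lpl*, the lipase that these proteins inhibit, was at 16.4, 14.1, 25.5 and 22.5 CPM in *Srsf10-kd* 1 to 4 and at 11.4, 14.4, 16.3 and 12.6 CPM in *Ctrl* 1 to 4. The groups overlapped, with a log2 fold change of 0.52 (SE 0.19, edgeR adjusted p 0.180). *Gpihbp1*, whose product anchors lipoprotein lipase in capillaries, had a log2 fold change of 0.40 (edgeR adjusted p 0.215). Hepatic lipase, *Lipc*, and endothelial lipase, *Lipg*, had values of -0.03 and -0.21. Of 16 genes of this system tested, 0 passed the adjusted edgeR test, 3 were higher and 0 lower at an unadjusted p under 0.05 (11.2% and 10.6% of all genes), and neither DESeq2 nor limma-voom called any. The median log2 fold change of 0.03 was near that of all genes.

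The fetuins were abundant, and their groups overlapped. *Ahsg* (chr16:22891277-22899449, plus strand, 7 exons) was at 7021, 5707, 5714 and 7114 CPM in *Srsf10-kd* 1 to 4 and at 5918, 6167, 7448 and 7012 CPM in *Ctrl* 1 to 4. The means were 6389 ± 784 and 6636 ± 715 CPM (SD, n = 4), with a log2 fold change of -0.05 (SE 0.15, 95% interval -0.38 to 0.27, edgeR adjusted p 0.836; exact permutation p = 0.571). A predicted gene on the opposite strand, *Gm30505*, overlaps its exons, and since the strand setting of the counting is not given in the sources used here, its counts are uncertain to that extent. *Fetub*, its neighbour on the chromosome (chr16:22918334-22939778, plus strand, 9 exons), was at 378, 344, 572 and 430 CPM in *Srsf10-kd* 1 to 4 and at 384, 340, 323 and 391 CPM in *Ctrl* 1 to 4. *Srsf10-kd* 3 was highest by a wide margin, and the other 7 livers lay between 323 and 430. The log2 fold change was 0.26 (SE 0.16, 95% interval -0.10 to 0.63, edgeR adjusted p 0.348; exact permutation p = 0.257), and 0.10 without *Srsf10-kd* 3. *Fetub* over *Ahsg* was 0.100 in *Srsf10-kd* 3 and 0.0434 to 0.0649 in the other livers.

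The relatives of the fetuins did not pass the test. *Hrg*, the histidine-rich glycoprotein gene, was at 655 ± 64.0 and 694 ± 106 CPM (log2 fold change -0.08). *Kng1* and *Kng2*, the kininogen genes, which share much of their sequence so that reads could be split between them, had log2 fold changes of -0.06 and -0.01. Of the 8 genes of the list, which also holds the insulin receptor, the target of fetuin-A, and its substrates, 0 passed the adjusted edgeR test and 1 was lower at an unadjusted p under 0.05, where 10.6% of all genes were. That gene, *Irs2*, which encodes an insulin receptor substrate, was chosen for mention after its values were seen. *Irs2* was at 3.71, 1.94, 2.02 and 3.47 CPM in *Srsf10-kd* 1 to 4 and at 9.13, 9.50, 5.13 and 13.8 CPM in *Ctrl* 1 to 4, without overlap. Its log2 fold change was -1.75 (SE 0.32), with an adjusted p of 0.0826 in edgeR, 2.1e-05 in DESeq2 and 0.0073 in limma-voom, and the edgeR count of the list became 1 without *Ctrl* 3.

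*Selenop* (chr15:3268547-3280508, plus strand, 5 exons) was at 7440, 6784, 8663 and 7600 CPM in *Srsf10-kd* 1 to 4 and at 6350, 6371, 7677 and 6806 CPM in *Ctrl* 1 to 4. The highest was *Srsf10-kd* 3 and the groups overlapped, with *Ctrl* 3 above 3 of the 4 livers labelled *Srsf10-kd*. The means were 7622 ± 779 and 6801 ± 621 CPM (SD, n = 4), a log2 fold change of 0.16 (SE 0.14, 95% interval -0.14 to 0.47, edgeR adjusted p 0.474; exact permutation p = 0.20). *Ccdc152*, on the opposite strand, shares 12.7% of the read-length stretches of *Selenop* and was counted at 0.104 to 0.239 CPM. As for *Ahsg*, the strand setting of the counting is not given, so the *Selenop* counts are uncertain to that extent.

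The list of selenoproteins and of genes that handle selenium, *Selenop* included, held more genes higher in sign than lower. Of 27 tested, 19 were higher and 8 lower, against 51.3% and 48.7% of all genes. Their median log2 fold change was 0.22, and 0.08 with the length trend removed. None passed the adjusted edgeR test, and at an unadjusted p under 0.05 there were 4 higher and 1 lower, where 11.2% of all tested genes were higher and 10.6% lower. DESeq2 called 0 and limma-voom 1, *Gpx3*, named here after its values were seen (8.71 ± 2.12 and 6.07 ± 1.40 CPM). Of all tested genes, limma-voom called 5.03% as higher. *Gpx1*, the main hepatic glutathione peroxidase, was at 1663, 1929, 3198 and 2073 CPM in *Srsf10-kd* 1 to 4 and at 1715, 1596, 1651 and 1447 CPM in *Ctrl* 1 to 4. *Srsf10-kd* 3 was again the highest, and the log2 fold change of 0.47 (edgeR adjusted p 0.210) became 0.17 with the length trend removed. *Sephs2*, whose product makes the selenium donor for selenocysteine, was at 581 ± 47.2 and 688 ± 70.5 CPM, lower without overlap (log2 fold change -0.25, edgeR adjusted p 0.254). In the list, 2 further genes were apart in the other direction, *Txnrd2* (log2 fold change 0.22) and *Msrb1* (0.45), which encode reductases and are named after their values were seen. Among all tested genes, 6.73% were higher without overlap and 7.53% lower without overlap. *Secisbp2*, whose product recruits the selenocysteine machinery to the RNA, had a log2 fold change of -0.03, and *Lrp8*, which encodes a receptor of selenoprotein P, was at 0 to 0.123 CPM, too low to test.

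Among 34 other secreted liver factors, 31 were tested and 0 passed the adjusted edgeR test. At an unadjusted p under 0.05, 4 were higher and 3 lower, against 11.2% and 10.6% of all genes. In sign, 20 were higher and 11 lower, against 51.3% and 48.7%. The median log2 fold change was 0.17 (0.07 with the length trend removed). DESeq2 and limma-voom each called 1 higher and 1 lower. Of all tested genes, DESeq2 called 1.96% higher and 3.25% lower, and limma-voom 5.03% and 6.68%. The calls in the list were *Fstl1*, a follistatin-like factor (7.17 ± 0.374 and 5.10 ± 0.779 CPM), and *Dpp4*, a peptidase that is also shed into blood (91.3 ± 17.2 and 130 ± 15.9 CPM), both named after their values were seen. *Inhbe*, which encodes activin E, was at 103, 99.2, 45.8 and 130 CPM in *Srsf10-kd* 1 to 4 and at 121, 140, 173 and 238 CPM in *Ctrl* 1 to 4. *Srsf10-kd* 4 lay above *Ctrl* 1, and the log2 fold change was -0.83 (SE 0.30, edgeR adjusted p 0.176). *Igfbp1*, an insulin-repressed binding protein gene, had the widest spread of those named, at 12.1 to 82.0 and 32.9 to 80.3 CPM (log2 fold change -0.16). *Igfbp2* (-0.06), the activin inhibitor gene *Fst* (0.12), the chemotactic factor gene *Lect2* (0.35) and the retinol carrier gene *Rbp4* (0.17) had edgeR adjusted p of 0.403 to 0.926.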

How the data were processed

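Poly(A)-selected liver RNA of 8 mice was sequenced with a directional kit. Alignment to GRCm38 and gene counting were done by the authors with STAR 2.7.7a, and the deposited values are raw read counts per Ensembl gene, not normalized; the annotation release and strand column are not given in the sources used here. All 8 columns matched 1 liver each by the labels. Symbols (45143 identifiers), positions and transcript lengths came from GENCODE M21.

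Counts were analysed in R 4.3.3 with edgeR 4.0.16 (TMM, filterByExpr, quasi-likelihood test, no covariate, two-sided, Benjamini-Hochberg adjustment over 15491 genes). Levels are CPM after TMM normalization. The two-sided exact permutation test used log2 CPM with a prior count of 2. No pair of libraries was a duplicate (among 28 pairs, chi-square per degree of freedom was at least 46.5). Nothing in the labels says that replicates come from separate litters or batches, so p-values measure the spread between these livers. With at least 50456404 counts per library, counting error is small beside that spread for the hepatokine and receptor genes. For other named genes it need not be small, above all for those under 1 CPM. In the *Srsf10-kd* livers the spreads of *Fstl1* (7.17 ± 0.374 CPM) and *Fgfr1* (3.95 ± 0.321 CPM) are close to their counting error.

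Alternatives were DESeq2 1.42.0, the test the paper's methods name, limma 3.58.1 (voom with sample quality weights), DESeq2 size factors in edgeR, library size alone, no filter, a replicate block, a minimum of 10 counts in every liver, leaving out each liver, and removal of a lowess trend (span 0.5) on length or GC content. The scripts were tested on simulated data.

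The 9 genes, the lists and the named genes (by role; any list gene past an adjusted p of 0.05; for *Fgf21*, *Gdf15* and *Klb* the 3 genes of highest Pearson's r with a mean log2 CPM of at least 1) were chosen with earlier results of these data known. Exceptions are said to have been named after their values were seen.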

Additional observations from a re-analysis of the deposited data

Results flagged for a closer look

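In 4 of 132 groups of 4 livers examined, where chance would mark about 1 in 20 (6.6 groups), 1 liver lay far from the other 3 by Dixon's test, the distance to its neighbour as a part of the group's range. For the first principal component *Srsf10-kd* 3 was at -67.4 and the other *Srsf10-kd* livers at -11.5 to -1.92 (gap over range 0.853). *Frs2*, the receptor adaptor gene, was at 9.08 CPM in *Srsf10-kd* 3 and at 15.1 to 16.7 CPM in the other livers of that group (gap over range 0.838 on log2 CPM). *Angptl6* was at 23.1 CPM in *Srsf10-kd* 3 and at 10.4 to 10.9 CPM in the other livers of that group (0.942). *Igfbp1* was at 80.3 CPM in *Ctrl* 4 and at 32.9 to 36.3 CPM in the other *Ctrl* livers (0.89). None of the 9 hepatokine and receptor genes had such a liver in either group.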

How the results depend on the processing

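The 11 genes past an adjusted p of 0.05 became 819 with DESeq2, 1814 with limma-voom, 46 without a filter and 0 to 544 with 1 liver left out (0 without *Srsf10-kd* 1, 2 or 4 or *Ctrl* 2, 4 without *Ctrl* 1, 5 without *Ctrl* 4, 64 without *Srsf10-kd* 3, 544 without *Ctrl* 3). Of the 9 hepatokine and receptor genes, 0 passed in edgeR and 1, *Klb*, with DESeq2 (log2 fold change -0.79) and limma-voom (-0.66). With 1 liver left out *Klb* ran from -0.95 to -0.58. The 0 FGF receptor signalling genes became 3 with DESeq2 and 6 with limma-voom. The 1 regulator became 2 and 6, and 0 to 1 with 1 liver left out. The 0 genes of the fetuin list became 1 with DESeq2 and limma-voom (the insulin receptor substrate *Irs2*), 1 without a filter, and 0 to 1 with 1 liver left out (1 without *Ctrl* 3). The 0 selenoprotein genes became 1 with limma-voom, and the 0 other secreted factors 2 with DESeq2 and 2 with limma-voom. Of all genes tested in edgeR, DESeq2 called 5.22% and limma-voom 11.7%.

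Direction turned only for genes that passed no test. With limma-voom *Fgf21* was at 0.53, *Angptl4* at 0.066, *Angptl8* at -0.16 and *Ahsg* at 0.090. With the length trend removed *Gdf15* was at -0.014 and *Angptl8* at -0.26, and with the GC trend removed *Angptl8* was at -0.023. With 1 liver left out *Fgf21* ran from -0.49 to 0.38, *Fgfr4* from -0.22 to 0.10 (0.10 without *Srsf10-kd* 3, 0.02 without *Ctrl* 1), *Gdf15* from -0.017 (without *Ctrl* 3) to 0.37, *Angptl4* from -0.22 to 0.043 (positive without *Srsf10-kd* 3), *Angptl8* from -0.19 to 0.27 (-0.10 without *Ctrl* 1) and *Ahsg* from -0.11 to 0.0034 (positive without *Ctrl* 3). The cause was not tested. Of 153 alternatives over the 9 genes, 135 kept the direction. *Klb*, *Fetub* and *Selenop* kept theirs in all 17 each.

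With the replicate number as a block, 59 genes passed (4 higher, 55 lower), among them *Irs2* as the 1 gene of the fetuin list, *Klb* was at -0.84 (adjusted p 0.0792) and *Angptl8* at -0.022. By their labels, same-numbered livers share only the number. Their deviations from group means correlated at -0.18, 0.21, 0.27 and 0.22. Among the 4 livers of the other group, 5 of 8 livers correlated best with the one of their own number. Whether the number marks a batch was not tested.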
